A study of Mus musculus with 24 samples.

Results

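The genes described here encode the nuclear part of the oxidative phosphorylation machinery of mitochondria. They were taken by symbol from a table of 24046 genes: symbols beginning Nduf with a subunit letter and number, Sdha to Sdhd, Uqcr, Cox4 to Cox8 with a subunit letter, and Atp5, without the Ndufaf assembly factors and pseudogene symbols. Of 82 matching symbols, 77 had a mean of at least 1 CPM (reads of a gene after scaling each library to the same total) over the 24 libraries and are the members. By symbol they comprise 36 genes of complex I, 4 of complex II, 8 of complex III, 12 of complex IV and 17 of complex V. All 77 also passed the count filter of the tests, in which 14099 genes were tested. The 5 genes under the minimum were Cox6a2, at a mean of 0.374 CPM, Ndufa4l2, at 0.0937 CPM, Cox8b, at 0.0237 CPM, Cox7b2, with 2 reads in all, and Cox8c, with 0 reads, which allows up to 0.00572 CPM (3 reads over the 24 libraries, counting error only). The member nearest the minimum was Cox7a1, the heart and muscle form of a complex IV subunit, at 1.35 CPM.

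RNA was sequenced from mouse bone marrow leukaemia cells driven by MLL-AF9, a fusion oncogene, in moribund secondary recipients. The libraries form 4 sets, each with 3 floxed libraries (Cre with both alleles of a gene floxed) and 3 control libraries (Cre with both alleles unfloxed). The groups are Arid1b fl/fl VavCre+ against Arid1b +/+ VavCre+, called the VavCre Arid1b set; Arid2 fl/fl VavCre+ against Arid2 +/+ VavCre+, the VavCre Arid2 set; and floxed MxCre+ against +/+ MxCre+ in both MxCre sets. Every leukaemia, controls included, carries MLL-AF9 and Cre. The Vav promoter drives Cre in blood cells from early development, and the Mx promoter answers to interferon. Mice of both genotypes in the MxCre sets received pIpC, an interferon-inducing RNA, at 12.5 µg per gram of body weight in 3 injections beginning 21 days after transplantation. The labels of the MxCre sets conflict. The set whose titles begin A2 has Arid1b in its cell type label, and the set whose titles begin A1b has Arid2. Titles serve here only as names, and which gene was deleted is left unsaid. The proteins ARID1B and ARID2 belong to SWI/SNF complexes, which remodel chromatin. No label tells whether a group's libraries came from separate primary leukaemias, so p-values measure the spread between these libraries, which may be technical in part.

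Oxidative phosphorylation is carried out by 5 complexes of the inner mitochondrial membrane. Complexes I and II pass electrons from NADH and succinate to ubiquinone, complex III passes them to cytochrome c, complex IV to oxygen, and complex V, the ATP synthase, uses the proton gradient built on the way to make ATP. Most subunits are encoded in the nucleus and a few in mitochondrial DNA, and acute myeloid leukaemia cells are known to depend on this pathway. All values below are RNA levels in whole samples, in which fewer cells of a type and less RNA per cell cannot be told apart. From here on CPM also carry a scaling factor for each library (TMM), so they are not exact shares of its counts.

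The members spanned a wide range of level. Per kb of transcript, the highest of all was Atp5b, the catalytic beta subunit of the ATP synthase, at 504.5 CPM per kb, followed by Atp5a1, the alpha subunit, at 354 CPM per kb. The highest of complex IV was Cox8a, a small structural subunit, at 290 CPM per kb. The highest listed under complex I was Ndufa4, at 193 CPM per kb, although the protein is now known to belong to complex IV. In complex III the highest was Uqcrh, the hinge protein, at 165 CPM per kb. In complex II it was Sdha, the flavoprotein that oxidises succinate, at 103 CPM per kb, with Sdhd, a membrane anchor, close behind at 101 CPM per kb. The lowest of complex V were Atp5s, at 6.01 CPM per kb, and Atp5sl, at 17.7 CPM per kb. Neither encodes a subunit in spite of its Atp5 symbol. Atp5s is the ATP synthase coupling factor B, and Atp5sl, now named Dmac2, is known from human cells to act in assembly of the distal membrane arm of complex I. The median member had 70.0 CPM per kb in complex I, 90.7 CPM per kb in complex II, 107 CPM per kb in complex III, 126 CPM per kb in complex IV and 115 CPM per kb in complex V.

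**Figure D1:**
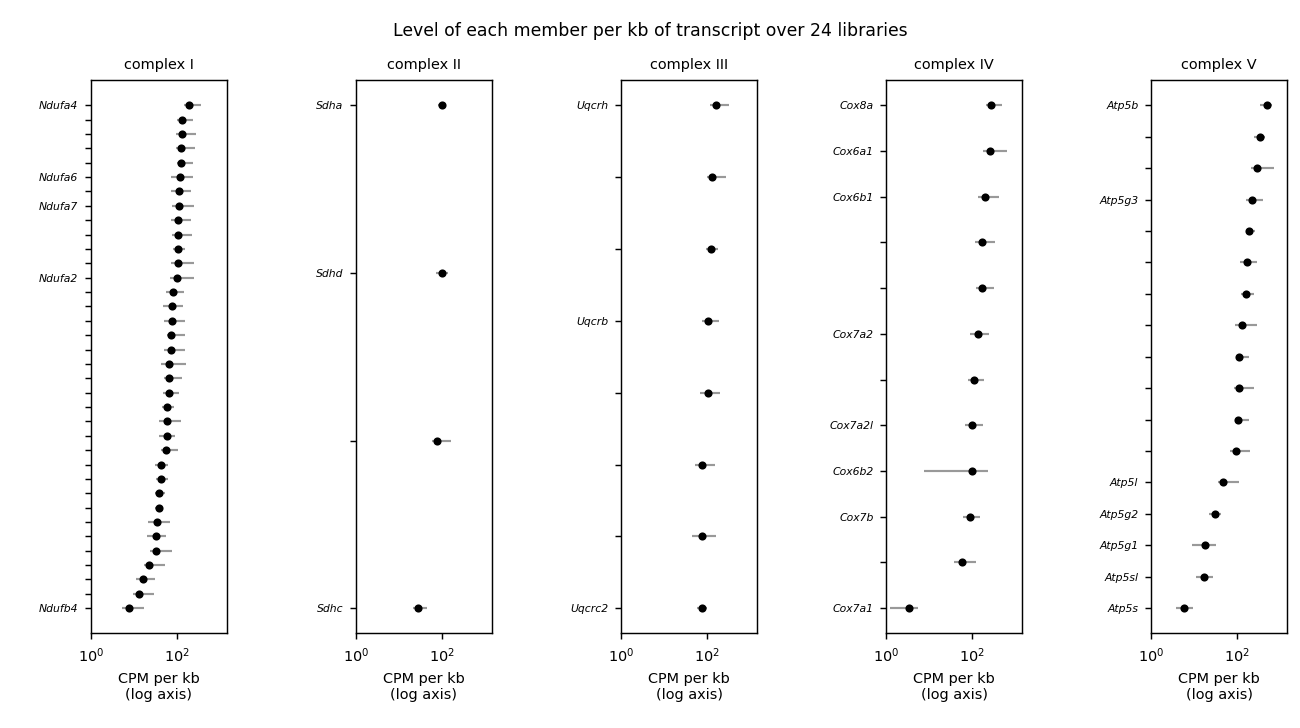
Level of each of the 77 members per kb of transcript, by complex, on a log axis. Only some members are labelled. Points are means over 24 libraries and lines run from the lowest to the highest library; Atp5b stands highest, at 504.5 CPM per kb, Cox7a1 lowest, at 3.41 CPM per kb, and Cox6b2 has the widest line.

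For the c subunit, Cox6a, Ndufa4 and Cox7b, 1 isoform carried most of the RNA. The c subunit of the ATP synthase rotor is encoded by 3 genes with the same mature protein. Atp5g3 gave a median of 81.6% of their RNA per kb over the 24 libraries (78.4% to 86.6%), Atp5g2 11.6% and Atp5g1 6.75%. Cox6a1, the form of most tissues, gave 99.8% beside Cox6a2, the heart and muscle form, and Ndufa4 gave at least 99.8% in every library beside Ndufa4l2, which is known to be induced by hypoxia. Cox7b, a small complex IV subunit, had 90.6 CPM on average, beside 2 reads in all for its paralogue Cox7b2. In the Cox7a family, Cox7a2 gave a median of 57.9%, Cox7a2l 40.8% and the muscle form Cox7a1 1.34%, and Cox7a2l was above Cox7a2 in 5 of the 24 libraries. Cox7a2l gave 56.1%, 51.9% and 49.2% in floxed libraries of the VavCre Arid2 set, against 34.2%, 37.4% and 37.6% in controls. It gave 45.2%, 50.2% and 48.6% in floxed libraries of the VavCre Arid1b set, against 30.6%, 35.5% and 31.4% in controls. Of 6 muscle and heart markers, Mb was at 0 in every group but the VavCre Arid2 controls, and the summed level of the list ran from 2.28 to 52.2 CPM.

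Some counts are uncertain because the sources used here do not give the counting tool or its strand setting. Of the members, 21 share exon bases with another gene, 19 of them on the opposite strand, and for 15 that gene is in the count table, such as Gabpa for Atp5j and Braf for Ndufb2. In addition, 4 members, Atp5c1, Atp5k, Atp5l and Uqcrh, have annotated pseudogene copies.

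Cox6b2, known as the testis form of a subunit that faces the intermembrane space, was an exception to the low share of tissue-specific forms. It gave a median of 32.98% of Cox6b RNA per kb, from 5.33% in floxed library 3 of the MxCre set titled A2 to 48.4% in control library 2 of the same set. It was also the most variable member between replicates: its biological coefficient of variation was 0.526, against a median of 0.216 over the members and 0.259 over all tested genes. Only 8 of the 77 members lay above that median of all genes, and the steadiest was Ndufs1, a large iron-sulfur subunit of complex I, at 0.134.

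The sequence before the gene start was read for words of the factors known to act on these genes. Windows of 250 bases before the start of the gene were found for 67 of the 77 members in the RefSeq table of GRCm38.p6. The words were searched on both strands. GCGCATGCG, a word of nuclear respiratory factor 1 (NRF1), stood in 6 member windows (8.96%), against 1.49% of the windows of 27025 genes. CCGGAAG, a word of ETS factors such as GABP, stood in 11 (16.4%), against 7.05%. CCAAT stood in 30 (44.8%), against 34.5%, GGGCGG, the SP1 word, in 24 (35.8%), against 32.9%, and TATAAA in 5 (7.46%), against 12.97%. AAGATGGCG, the YY1 word, stood in 0 of the member windows, against 0.607%. None of the words contains another, the NRF1 word overlaps its own reverse complement, and a match is only a match of letters. The windows below are those of the 6 members with the NRF1 word, of Uqcrh, the highest member of complex III, and of Atp5sl, the 1 member that passed the test of a floxed effect. Each is the 250 bases before the start, 5′ to 3′ on the strand of the gene, and capitals mark the NRF1, ETS and CCAAT words. For Atp5sl, listed as Dmac2, RefSeq gives 2 windows and the first is shown.
Atp5g2, chr15:102671048-102671297, minus strand: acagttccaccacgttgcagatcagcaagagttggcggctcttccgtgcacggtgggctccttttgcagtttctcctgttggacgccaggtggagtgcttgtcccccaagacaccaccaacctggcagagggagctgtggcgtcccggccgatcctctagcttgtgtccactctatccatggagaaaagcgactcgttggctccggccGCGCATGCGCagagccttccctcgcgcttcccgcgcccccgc
Atp5k, chr5:108434400-108434649, minus strand: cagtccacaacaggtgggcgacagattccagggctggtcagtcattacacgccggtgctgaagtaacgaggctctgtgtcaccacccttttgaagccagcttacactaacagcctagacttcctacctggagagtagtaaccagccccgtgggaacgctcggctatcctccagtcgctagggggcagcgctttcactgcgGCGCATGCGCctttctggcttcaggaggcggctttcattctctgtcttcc
Atp5l, chr9:44920743-44920992, minus strand: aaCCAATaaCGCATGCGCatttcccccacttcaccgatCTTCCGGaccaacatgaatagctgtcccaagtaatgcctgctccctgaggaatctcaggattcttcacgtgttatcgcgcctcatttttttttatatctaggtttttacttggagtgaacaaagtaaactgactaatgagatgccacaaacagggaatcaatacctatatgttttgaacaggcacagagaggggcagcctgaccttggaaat
Cox6a1, chr5:115348959-115349208, minus strand: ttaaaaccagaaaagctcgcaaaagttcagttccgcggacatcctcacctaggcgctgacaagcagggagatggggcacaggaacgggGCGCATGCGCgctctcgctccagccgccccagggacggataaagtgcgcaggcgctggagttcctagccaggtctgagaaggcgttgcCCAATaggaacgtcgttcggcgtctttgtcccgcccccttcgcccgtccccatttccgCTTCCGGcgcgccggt
Ndufa11, chr17:56717512-56717761, plus strand: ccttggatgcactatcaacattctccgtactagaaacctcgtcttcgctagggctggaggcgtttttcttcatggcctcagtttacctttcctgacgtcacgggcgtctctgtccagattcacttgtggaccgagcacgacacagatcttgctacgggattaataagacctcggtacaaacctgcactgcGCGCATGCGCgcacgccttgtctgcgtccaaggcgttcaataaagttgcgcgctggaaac
Ndufa8, chr2:36049339-36049588, minus strand: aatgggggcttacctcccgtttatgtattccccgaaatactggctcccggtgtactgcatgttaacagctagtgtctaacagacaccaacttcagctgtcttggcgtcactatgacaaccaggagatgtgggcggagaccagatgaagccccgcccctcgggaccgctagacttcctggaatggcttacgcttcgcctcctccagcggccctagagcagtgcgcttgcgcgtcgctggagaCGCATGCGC
Uqcrh, chr4:116075071-116075320, minus strand: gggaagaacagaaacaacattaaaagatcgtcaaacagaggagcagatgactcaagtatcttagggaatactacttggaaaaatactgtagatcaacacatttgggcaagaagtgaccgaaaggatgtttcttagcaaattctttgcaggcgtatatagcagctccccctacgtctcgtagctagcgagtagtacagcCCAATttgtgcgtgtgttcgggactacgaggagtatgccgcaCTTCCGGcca
Atp5sl, chr7:25619164-25619413, plus strand: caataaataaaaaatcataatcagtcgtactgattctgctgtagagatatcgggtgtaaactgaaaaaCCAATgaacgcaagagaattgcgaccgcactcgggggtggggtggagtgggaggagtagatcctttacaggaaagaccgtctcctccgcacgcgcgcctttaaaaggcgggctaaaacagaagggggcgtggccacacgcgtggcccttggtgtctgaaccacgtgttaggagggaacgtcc
The Cox6a1 and Atp5l windows held all of the 3 marked words and the Atp5sl window only the CCAAT word. The 6 genes with the NRF1 word encode synthase, complex IV and complex I subunits, and their levels ran from 31.8 CPM per kb for Atp5g2 to 273 CPM per kb for Cox6a1.

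Libraries held 12069153 to 38315410 counts. The members together summed to a median of 8017 CPM, and the sum ran from 6321 to 9679 CPM in 23 of the 24 libraries. Floxed library 2 of the MxCre set titled A1b stood apart, at 13410 CPM. Arid1b gave 140, 184 and 169 CPM in floxed libraries of the VavCre Arid1b set, against 220, 186 and 367 CPM in controls, and Arid2 gave 290, 281 and 197 CPM in floxed libraries of the VavCre Arid2 set, against 218, 443 and 237 CPM in controls. Counts over a whole gene do not measure loss of a floxed exon. Neutrophil markers, 14 of 14 in the table and none at 0 in any group, summed to 2281 to 32268 CPM per library. Kdm5d, a Y-linked gene, was over 10 CPM in 0 of 3 floxed and 3 of 3 control libraries of the VavCre Arid1b set, in 1 and 0 of the VavCre Arid2 set, in 3 and 0 of the MxCre set titled A2, and in 1 and 2 of the MxCre set titled A1b. In the VavCre Arid1b set and the MxCre set titled A2, genotype and Y-linked expression cannot be told apart.

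**Figure D2:**
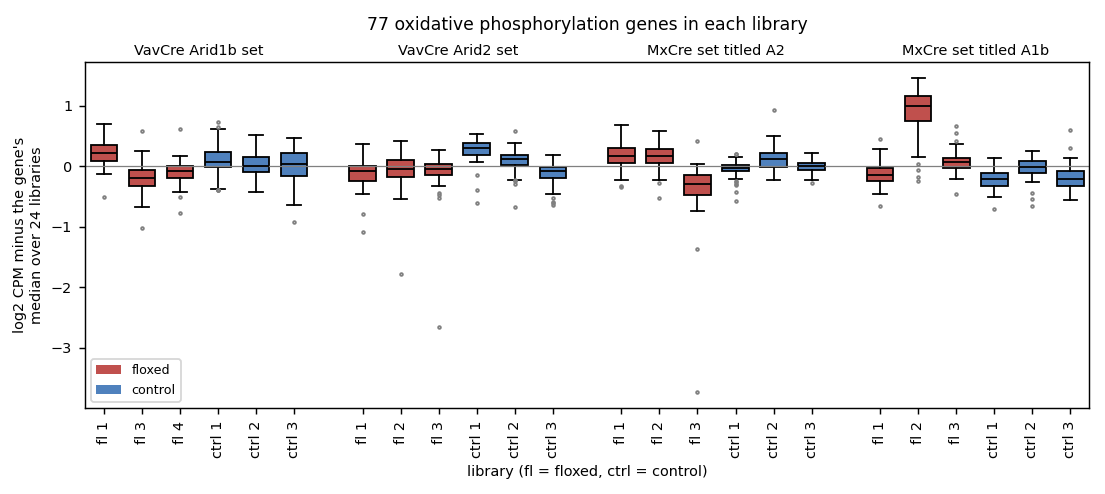
Level of the 77 members in each library, as log2 CPM minus the median of that gene over 24 libraries (boxes: quartiles and median). Floxed library 2 of the MxCre set titled A1b sits at a median of 1.00, and the other 23 libraries lie between -0.30 and 0.30.

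In floxed library 2 of the MxCre set titled A1b, 74 of 77 members were above their own median over the 24 libraries, and the median member was higher by 1.00 on the log2 scale. The shift was 1.07 for complex I, 1.05 for complex III, 0.97 for complex IV, 0.83 for complex V and 0.58 for complex II, whose members have the longest transcripts. The median gene was also high in that library where transcripts were short. Among all genes with a transcript under 1 kb (1389 genes), the median deviation was 0.72, against 0.42 for 1 to 2 kb, -0.04 for 2 to 4 kb and -0.52 over 4 kb. Members in the same classes had medians of 1.10 (47 genes), 0.69 (22 genes) and 0.39 (8 genes), with 0 members over 4 kb. The members have a median transcript of 861 bp, from 371 bp for Atp5k to 3171 bp for Sdhc, against 2744 bp over all tested genes, and 75 of the 77 are shorter than that.

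After the trend of deviation on length over all genes was taken out of each library, the members' median in that library was 0.21, with 63 of 77 above their own median. This lay within the range of the other libraries after the same correction, -0.21 to 0.22. Other short genes moved with it: the median deviation was 1.04 for 82 cytosolic ribosomal protein genes (0.26 after correction) and 0.60 for 77 mitochondrial ribosomal protein genes (0.08 after correction). The library also held 439 CPM of erythroid markers (10 of 10 in the table), against 3.76 and 4.19 CPM in the other floxed libraries of the set and 2.66 to 66.0 CPM in its controls, and 32268 CPM of neutrophil markers, the highest of the 24. The part of these cells in the result was not tested.

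**Figure D3:**
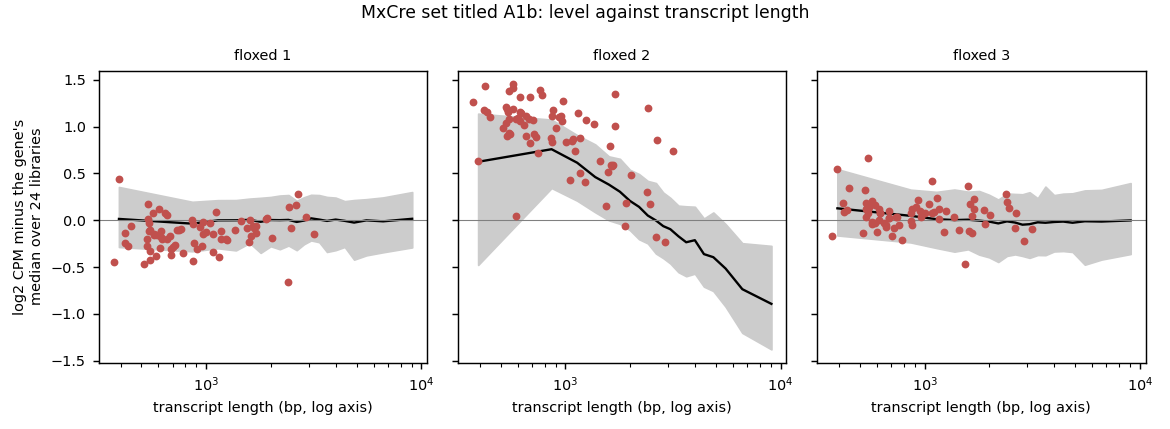
Deviation of each gene from its median over 24 libraries (log2 CPM) against transcript length in bp (log axis) in the 3 floxed libraries of the MxCre set titled A1b; lines and grey bands are medians and quartiles of all tested genes in 20 length classes, and red points are the 77 members. In floxed 2 the line is lower for long than for short transcripts, and 74 of the 77 members lie above 0, while in floxed 1 and floxed 3 the line is nearly flat.

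Each set was then tested with edgeR's quasi-likelihood test on all genes and libraries, with Benjamini-Hochberg adjustment over the 14099 genes. A gene was called at an adjusted p under 0.05, and each log2 fold change sets floxed over control libraries and has a standard error (SE).

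In the VavCre Arid1b set, 1 of 77 members was called, against 6.57% of all tested genes. This was Atp5sl (chr7:25619414-25625550 in GRCm38, as all positions here), which rose. It is listed under complex V by its symbol but, as said above, is not a subunit. It had 66.1, 62.5 and 63.8 CPM in floxed libraries, against 35.8, 41.6 and 33.4 CPM in controls. Every floxed library lay above every control, and the log2 fold change was 0.80 (SE 0.23, adjusted p = 0.0450). The call was close to the threshold: leaving out any 1 of the 6 libraries of the set gave adjusted p-values of 0.0580 to 0.139, with log2 fold changes of 0.76 to 0.89.

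No other member of the VavCre Arid1b set was called by edgeR. DESeq2 called 1, Atp5sl, and limma-voom with sample weights 15, 3 higher and 12 lower. Both methods also called more of all genes in this set than edgeR did. The median over all 77 was -0.09, against -0.06 over all genes, and 53 of 77 were negative, against 55.1% of all genes. Leaving out 1 library of the set moved this median between -0.25 (without floxed library 1) and 0.01 (without floxed library 3, with 37 of 77 negative). An unadjusted p under 0.05 was reached by 4 of 77 (24% of all genes). The 95% interval lay within 2-fold in both directions for 72 of 77 members, against 49.9% of all genes. The 2 genotypes did not overlap for 9 members (32.4% of all genes). The higher ones were Atp5sl, Cox7a2l, Sdhb and Uqcrh, and the lower ones Atp5s, Cox7a1, Cox7a2, Ndufa8 and Sdha. By complex the medians were -0.10 for I, 0.01 for II, -0.08 for III, -0.10 for IV and -0.08 for V. Cox7a2l (chr17:83501917-83514333), a factor that joins complexes III and IV into supercomplexes, had 122, 117 and 120 CPM in floxed libraries, against 82.4, 88.9 and 78.0 CPM in controls. All floxed libraries were above all controls, at a log2 fold change of 0.52 (SE 0.22) that did not pass the test (adjusted p = 0.150). Cox7a2, its paralogue in complex IV, had 88.7, 69.5 and 75.6 CPM in floxed libraries, against 111, 96.0 and 102 CPM in controls, on the lower side (log2 fold change -0.40, SE 0.23, adjusted p = 0.294).

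Markers of some other cell types differed by genotype in this set without overlap. The monocyte and macrophage list (9 of 10 genes in the table, none at 0) summed to 3975 to 5995 CPM in floxed libraries, against 625 to 1532 CPM in controls. The T and NK list (8 of 9 in the table, none at 0) summed to 1.89 to 2.58 CPM in floxed libraries, against 8.34 to 14.9 CPM in controls, and the erythroid list to 7.51 to 28.0 CPM in floxed libraries, against 2.91 to 3.805 CPM in controls. Neutrophil markers overlapped, at 2281 to 5832 CPM in floxed libraries, against 2950 to 15835 CPM in controls. Their part in the Atp5sl result was not tested. With a term for Y-positive libraries, the log2 fold change of Atp5sl was 0.84 (adjusted p = 0.203) and the median member was -0.38. That term goes with genotype in this set, so only the VavCre Arid2 set and the MxCre set titled A1b could fix its size. Floxed library 2 of the latter was among the libraries that fixed it.

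**Figure D4:**
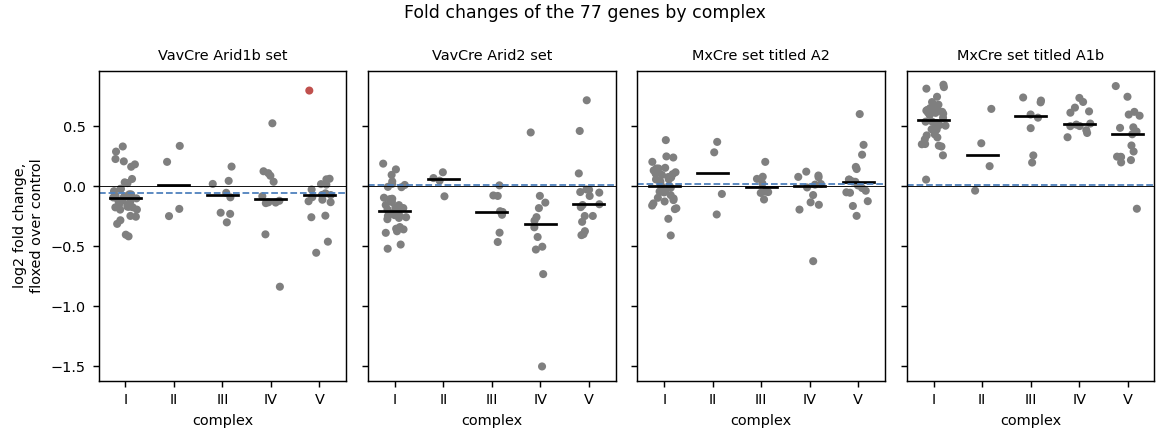
Log2 fold change, floxed over control, of each member by complex in the 4 sets (points; red marks an adjusted p under 0.05), with the median of each complex (black bars) and of all 14099 tested genes (dashed line). The 1 red point is Atp5sl in the VavCre Arid1b set, and in the MxCre set titled A1b 75 of 77 points lie above 0.

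In the VavCre Arid2 set, 0 of 77 members were called by edgeR, against 1.31% of all genes. DESeq2 called 1, Atp5sl, and limma-voom with sample weights 21, where it called 4418 of all genes. The members lay slightly lower in floxed libraries: the median was -0.20, against 0.00 over all genes, and 63 of 77 were negative, against 49.5% of all genes. Complex IV had the lowest median, -0.32, with 11 of 12 members negative, and complex II was the 1 complex with a positive median, 0.06. Complex IV has the shortest median transcript of the 5, 617 bp, and complex II the longest, 2065.5 bp. Genes under 1 kb as a whole had median deviations of -0.19, -0.21 and -0.19 in floxed libraries, against -0.02, -0.11 and -0.21 in controls. After the length correction the median member stood at -0.01, 0.04 and 0.04 in floxed libraries, against 0.22, 0.14 and 0.03 in controls. The part of transcript length in the medians of the complexes was not tested. An unadjusted p under 0.05 was reached by 6 members (19.5% of all genes), and the 95% interval lay within 2-fold for 68 (52.2% of all genes). The 2 genotypes did not overlap for 21 members (36.1% of all genes), 18 of them lower in floxed libraries, against 18.2% of all genes.

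The 3 members with the smallest p in the VavCre Arid2 set were Atp5sl, Uqcrb and Cox6b2. Atp5sl had 45.3, 55.8 and 44.3 CPM in floxed libraries, against 31.9, 26.3 and 30.5 CPM in controls. As in the other VavCre set, all floxed libraries were above all controls, here with a log2 fold change of 0.71 (SE 0.23) that missed the threshold (adjusted p = 0.107). Uqcrb (chr13:66900576-66905350), a small subunit of complex III at the ubiquinone site, had 48.9, 43.3 and 49.6 CPM in floxed libraries, against 73.2, 65.6 and 57.2 CPM in controls. The floxed libraries were all lower (log2 fold change -0.47, SE 0.20, adjusted p = 0.201). Uqcrb shares exon bases with Gm10767 on the other strand. Cox6b2 (chr7:4751792-4753094) had 26.3, 16.2 and 8.85 CPM in floxed libraries, against 60.4, 48.4 and 36.9 CPM in controls. This was the lowest fold change of any member, -1.50, with an SE of 0.64 and an adjusted p of 0.205. Cox6b1, the common form, gave 77.3%, 85.7% and 92.0% of Cox6b RNA per kb in floxed libraries, against 69.6%, 70.6% and 72.8% in controls.

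Control library 1 of the VavCre Arid2 set had the highest median of the 23 other libraries, with 74 of 77 members above their own median and a sum of 9679 CPM. Without it the median was -0.10, with 50 of 77 members negative. Neutrophil markers summed to 3379 to 12751 CPM in floxed libraries, against 12017 to 19343 CPM in controls. Monocyte markers summed to 3365 to 5378 CPM in floxed libraries, against 2093 to 3113 CPM in controls. B lineage markers (8 of 8 in the table, none at 0) summed to 2.72 to 6.09 CPM in floxed libraries, against 23.5 to 32.6 CPM in controls. Their part was not tested.

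**Figure D5:**
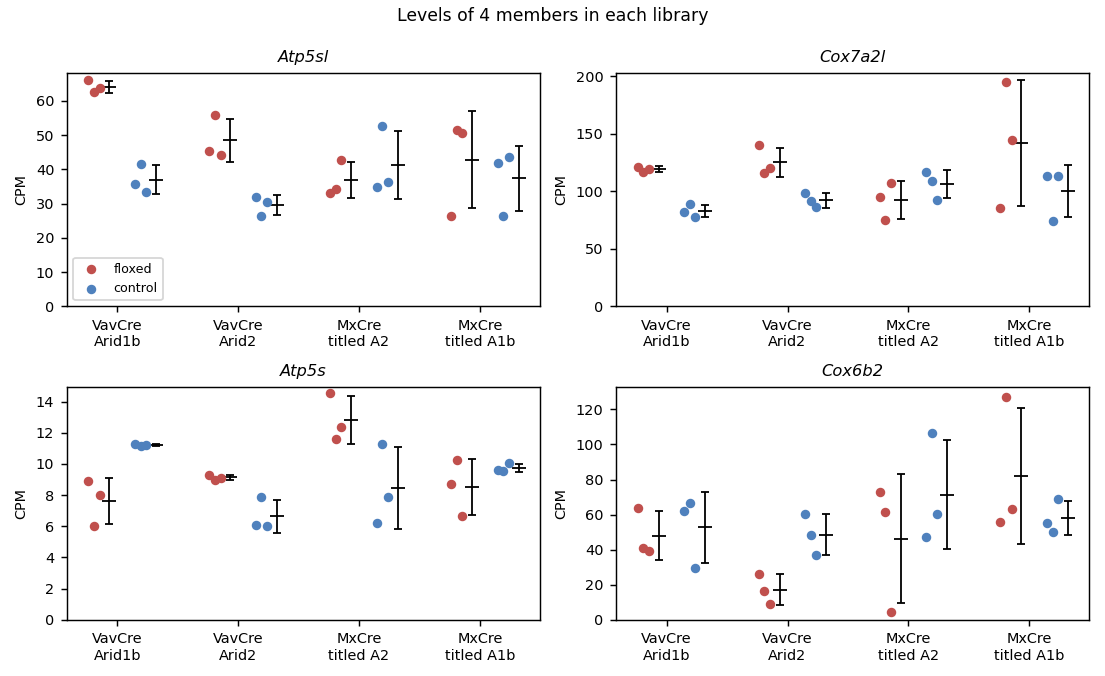
CPM of Atp5sl, Cox7a2l, Atp5s and Cox6b2 in each library of the 4 sets (points), with mean and SD of each group of 3 libraries (bars). Atp5sl and Cox7a2l are higher in all floxed than in all control libraries of both VavCre sets, and Cox6b2 is at 4.16 CPM in 1 floxed library of the MxCre set titled A2.

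In the MxCre set titled A2, 0 of 77 members were called by edgeR, against 0.0284% of all genes. DESeq2 called 0 and limma-voom 5, all higher, a count not set beside the share of all genes that limma-voom called. The median was 0.01, against 0.02 over all genes, 41 members were positive (51.8% of all genes), and 1 reached an unadjusted p under 0.05 (10.6% of all genes). The 95% interval lay within 2-fold for 74 of 77 members, against 55.5% of all genes. The 2 genotypes did not overlap for 6 members (15% of all genes): Atp5j and Atp5s were higher in floxed libraries, and Atp5c1, Ndufa6, Ndufa7 and Sdhb were lower. Atp5s (chr12:69724913-69744665) had 14.5, 11.6 and 12.3 CPM in floxed libraries, against 6.17, 11.3 and 7.90 CPM in controls. Its floxed libraries were all higher, with the nearest pair close together (log2 fold change 0.60, SE 0.22, adjusted p = 0.348). Sdhd had 178, 154 and 115 CPM in floxed libraries, against 117, 105 and 125 CPM in controls, and Sdha had 374, 359 and 248 CPM in floxed libraries, against 268, 258 and 281 CPM in controls. In both genes floxed libraries 1 and 2 were above the controls and floxed library 3 was among or below them. Their log2 fold changes were 0.37 (SE 0.18, adjusted p = 0.477) and 0.28 (SE 0.14, adjusted p = 0.513).

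Floxed library 3 was the lowest of all 24 in this gene group. Only 4 of 77 members were above their own median, the median deviation was -0.30, and the sum was 6321 CPM, against 9013 and 8929 CPM in floxed libraries 1 and 2. Cox6b2 had 72.8, 61.5 and 4.16 CPM in the floxed libraries of the set, against 47.2, 106 and 60.5 CPM in controls. Erythroid markers summed to 847 CPM in floxed library 3, 5.02 and 3.79 CPM in the other floxed libraries, and 3.97 to 8.68 CPM in controls. Over the whole set, neutrophil markers summed to 15837 to 23627 CPM in floxed libraries, against 7812 to 10866 CPM in controls. B lineage markers summed to 10.3 to 32.6 CPM in floxed libraries, against 39.9 to 47.6 CPM in controls, and T and NK markers to 11.7 to 51.3 CPM in floxed libraries, against 5.12 to 10.4 CPM in controls. The part of these cells was not tested. Without floxed library 3 the median member was 0.16, 61 of 77 were positive, and 0 were called. With a term for Y-positive libraries the median was 0.29 and 0 were called. Here too the term goes with genotype. Its size came from the VavCre Arid2 set and the MxCre set titled A1b, including floxed library 2 of the latter.

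Among the MxCre libraries titled A1b, 0 of 77 members were called by edgeR, against 0.00709% of all genes, although nearly all had higher means in floxed libraries. DESeq2 called 2, Atp5l and Ndufa7, and limma-voom 0. The median was 0.52, against 0.01 over all genes, and 75 of 77 were positive, against 50.7% of all genes. An unadjusted p under 0.05 was reached by 42 members (17.4% of all genes), all higher (9.59% of all genes). The 95% interval lay within 2-fold for 35 of 77 members, against 51.1% of all genes. The shift rested on floxed library 2. Without that library the median was 0.12, with 61 members positive and 1 with an unadjusted p under 0.05. With the length trend taken out as an offset and all libraries kept, the median was also 0.12, with 63 positive and 6 with an unadjusted p under 0.05. With both changes it was 0.03, with 47 positive. For 6 members all floxed libraries lay above all controls (6.55% of all genes): Ndufa12, Ndufb2, Ndufs3, Uqcr11, Uqcrb and Uqcrfs1.

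Leaving out floxed library 1 moved the result the other way. It gave a median of 0.71 and 38 members called, all higher, in a contrast where floxed library 2 was 1 of only 2 floxed libraries left. The share of all genes called in that fit was not set beside this count. Floxed library 1 itself had a sum of 7382 CPM and 16 members above their own median, and floxed library 3 had 8264 CPM and 53 members. The 3 controls had 6851, 8095 and 6681 CPM.

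The members with the smallest p in this set show the same library. Atp5l (chr9:44913248-44920742), subunit g of the synthase membrane part, had 22.8, 61.0 and 36.9 CPM in floxed libraries, against 24.1, 21.7 and 21.9 CPM in controls. The log2 fold change was 0.83 (SE 0.23, adjusted p = 0.118), and 0.40 without floxed library 2 (adjusted p = 0.418). Ndufa7, a peripheral subunit of complex I, had 49.7, 132 and 71.2 CPM in floxed libraries, against 49.8, 41.9 and 52.7 CPM in controls. Ndufa2, an accessory subunit of complex I, had 50.3, 149 and 64.8 CPM in floxed libraries, against 48.8, 50.3 and 47.9 CPM in controls. In all of these genes floxed library 2 was the highest of the 24 libraries, floxed library 3 was above the controls and floxed library 1 was not above them. The log2 fold changes of Ndufa7 and Ndufa2, 0.81 (SE 0.25, adjusted p = 0.139) and 0.84 (SE 0.28, adjusted p = 0.151), were 0.33 and 0.23 without floxed library 2. Ndufa2 shares exon bases with Tmco6 and Atp5l with an antisense gene. Sdha, with a transcript of 2900 bp, had 310, 257 and 261 CPM in floxed libraries, against 276, 335 and 240 CPM in controls. Floxed library 2 was not high for Sdha, and the log2 fold change was -0.04 (SE 0.14). The other members with transcripts over 2 kb differed there. Sdhc, a membrane anchor of complex II, had 144.65 CPM in floxed library 2, the highest of the 24. Ndufb2 and Atp5g1 lay above their own medians over the 24 libraries by 1.196 and 0.85 on the log2 scale. Ndufa10, Atp5sl and Atp5a1 lay above theirs by 0.49, 0.30 and 0.17, and Ndufs1 was at -0.18.

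The floxed effects of the sets were compared within each Cre driver. For the VavCre Arid1b effect minus the VavCre Arid2 effect, 0 of 77 members were called by edgeR, against 0.0142% of all genes, and 1 by both DESeq2 and limma-voom. In edgeR 1 had an unadjusted p under 0.05 (9.85% of all genes). That member was Atp5s. It had 8.88, 6.02 and 7.99 CPM in floxed libraries of the VavCre Arid1b set, against 11.3, 11.1 and 11.2 CPM in its controls. In the VavCre Arid2 set it had 9.30, 8.995 and 9.09 CPM in floxed libraries, against 6.05, 7.87 and 6.01 CPM in controls. The floxed libraries were all lower in the first set and all higher in the second, and the difference of the log2 fold changes was -1.01 (SE 0.32, adjusted p = 0.237). Ndufa6 and Cox6b2 followed, with differences of 0.54 (SE 0.34) and 1.37 (SE 0.89). For Atp5sl the difference was 0.08 (95% interval -0.60 to 0.76).

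For the effect in the MxCre set titled A2 minus that in the MxCre set titled A1b, 0 of 77 members were called by edgeR, against 0.192% of all genes, 1 by DESeq2 and 0 by limma-voom. In edgeR 14 had an unadjusted p under 0.05 (17.6% of all genes). The median difference was -0.51, with 72 of 77 negative (50% of all genes). The smallest p-values were those of Atp5l (-1.08, SE 0.32), Ndufa6 (-1.01, SE 0.34) and Ndufa7 (-1.003, SE 0.35), with adjusted p-values of 0.110, 0.151 and 0.157. This also rested on single floxed libraries of the MxCre set titled A1b. Without floxed library 2 the differences of Atp5l, Ndufa6 and Ndufa7 were -0.65, -0.56 and -0.52, and 4 members had an unadjusted p under 0.05. Without floxed library 1, 10 members were called, all with a lower effect in the set titled A2. That count was not set beside the share of all genes called in the same fit.

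Control leukaemias were compared between drivers, 6 MxCre against 6 VavCre libraries; Cre driver, pIpC and set go together here and cannot be told apart. Of 77 members 0 were called by edgeR, against 0.00709% of all genes, 0 by DESeq2 and 17 by limma-voom. The 17 were not set beside the share of all genes that limma-voom called. In edgeR 3 members had an unadjusted p under 0.05 (11.6% of all genes). The median was -0.16 and 68 of 77 were negative, against 50.4% of all genes. Atp5g2, the second isoform of the c subunit, had 15.2, 18.5, 18.7, 14.3, 15.8 and 14.2 CPM in MxCre controls, against 22.5, 19.998, 24.8, 25.5, 19.9 and 18.3 CPM in VavCre controls. Only VavCre Arid2 control 3 lay among the MxCre controls, and the log2 fold change was -0.44 (SE 0.14, adjusted p = 0.379). Uqcrc2, a core protein of complex III, was at -0.26 (SE 0.11) and Sdha at -0.22 (SE 0.10).

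Related genes of the pathway gave no call in any of the 4 sets. Of 35 assembly factors of the respiratory chain, 0 rose and 0 fell, with medians of -0.17 in the VavCre Arid1b set, -0.07 for VavCre Arid2, 0.17 in the MxCre set titled A2 and 0.18 in the MxCre set titled A1b. An unadjusted p under 0.05 was reached by 4, 4, 2 and 5 of them in the same order, against 24%, 19.5%, 10.6% and 17.4% of all genes. Ndufaf7, which methylates a complex I subunit, had 46.3 ± 7.43 CPM in floxed and 27.8 ± 3.77 CPM in control libraries of the VavCre Arid2 set (SD, n = 3 each; adjusted p = 0.104 by the edgeR model). Cox17, a copper chaperone for complex IV, had 30.3 ± 4.30 CPM in floxed and 52.5 ± 7.02 CPM in control libraries of that set (adjusted p = 0.165 by the edgeR model). Of 13 enzymes and subunits around the citric acid cycle, 0 rose and 0 fell, and 12 of 13 were negative in each VavCre set (55.1% of all genes in the VavCre Arid1b set and 49.5% in the VavCre Arid2 set). An unadjusted p under 0.05 was reached by 5 in the VavCre Arid1b set (24% of all genes) and 1 in the VavCre Arid2 set (19.5% of all genes). Mdh2, mitochondrial malate dehydrogenase, had 191 ± 22.8 CPM in floxed and 278 ± 32.99 CPM in control libraries of the VavCre Arid1b set (adjusted p = 0.0942 by the edgeR model), and 206 ± 12.6 CPM in floxed and 280 ± 6.74 CPM in control libraries of the VavCre Arid2 set (adjusted p = 0.217). The 1 positive gene of the VavCre Arid1b set was Fh1, fumarate hydratase, with 145 ± 13.2 CPM in floxed and 93.6 ± 12.1 CPM in control libraries (log2 fold change 0.63, SE 0.21, adjusted p = 0.0735 by the edgeR model).

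Of 15 regulators of mitochondrial gene expression, 0 rose and 0 fell. In the 4 sets in that order, 4, 1, 2 and 0 had an unadjusted p under 0.05 (24%, 19.5%, 10.6% and 17.4% of all genes). Nrf1, whose word is shown above, had 57.3 ± 0.609 CPM in floxed and 63.3 ± 5.599 CPM in control libraries of the MxCre set titled A2 (adjusted p = 0.678 by the edgeR model). Gabpb1, a subunit of GABP, had 60.4 ± 6.64 CPM in floxed and 82.1 ± 10.04 CPM in control libraries of the VavCre Arid1b set (adjusted p = 0.0717 by the edgeR model). Ppargc1a, a coactivator of mitochondrial biogenesis, had 0.0148 ± 0.0256 CPM in floxed and 0.444 ± 0.592 CPM in control libraries of the VavCre Arid1b set (log2 fold change -4.37, SE 1.75, adjusted p = 0.136 by the edgeR model). In the VavCre Arid2 set it had 0.0608 ± 0.105 CPM in floxed and 1.52 ± 1.51 CPM in control libraries (log2 fold change -4.47, SE 1.39, adjusted p = 0.101 by the edgeR model). The floxed levels of Ppargc1a are close to no reads, and each control SD is near or above its mean. The sizes of these fold changes are therefore uncertain. Of 7 genes that the symbol rule leaves out (Cox4i1, Cox4i2, Ndufab1, Usmg5, Cyc1, Cycs and Atpif1), 0 were called. An unadjusted p under 0.05 was reached by 1, 0, 0 and 3 (24%, 19.5%, 10.6% and 17.4% of all genes). Atpif1, the inhibitor of the ATP synthase, had 75.3 ± 16.6 CPM in floxed and 122 ± 9.35 CPM in control libraries of the VavCre Arid1b set (adjusted p = 0.0827 by the edgeR model). Cox4i1, the common form of a complex IV subunit, had 298 ± 47.4 CPM in floxed and 364 ± 12.6 CPM in control libraries of the MxCre set titled A2 (adjusted p = 0.664 by the edgeR model). The MxCre set titled A1b, with floxed library 2 in the group, gave the larger difference for Cox4i1, 465 ± 207 CPM in floxed and 298 ± 8.23 CPM in control libraries (log2 fold change 0.64, SE 0.21, adjusted p = 0.147). Atpif1 had 152 ± 49.8 CPM in floxed and 102 ± 14.7 CPM in control libraries there (log2 fold change 0.58, SE 0.24, adjusted p = 0.215). Its log2 fold change was -0.44 in the VavCre Arid2 set (SE 0.24, adjusted p = 0.305).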

How the data were processed

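Whole-gene read counts of 24 libraries were used as the authors deposited them, with no normalization. Per the labels' protocols, TRIzol RNA was selected on poly(A) beads and made into libraries with a directional kit. Per the submitters' processing notes, STAR and mm10 were used; counting tool, annotation and strand setting were not given in the sources used here.

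Counts were scaled by TMM to CPM and fitted with edgeR 4.0.16 (R 4.3.3) in 1 quasi-likelihood model of 8 groups, after a filter at a minimum count of 10 that left 14099 genes. P-values were adjusted by Benjamini-Hochberg over all of these. The script was also run on simulated counts with planted changes, 1 spread for all genes and no length trend. That run checks only the script, because these data differ from it in both. Alternatives were RLE and upper-quartile scaling, no filter, DESeq2 1.42.0, limma-voom (limma 3.58.1), an offset for transcript length, a replicate block, a term for Y-positive libraries, the groups of 1 set only, and leaving out libraries. Transcript lengths came from GENCODE M21, and positions and promoters from RefSeq for GRCm38. Shares of isoforms are of CPM per kb. Libraries held 12069153 to 38315410 counts; the floor of 3 counts covers counting error only.

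The members and lists were chosen with earlier results of these data known. Members named are those called or, with none, the 3 with the smallest p in each comparison, the highest of each complex per kb, and isoforms; from other lists, up to 3 with the smallest p in each set. Members with non-overlapping groups were named after their values were seen.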

Additional observations from a re-analysis of the deposited data

Results flagged for a closer look

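For 5 genes every floxed library lay above every control in 1 set and below every control in another. The share of all genes that do so was not counted. In 1 set alone the genotypes did not overlap for 32.4% of all genes (VavCre Arid1b), 36.1% (VavCre Arid2) and 15% (MxCre titled A2). In the MxCre set titled A1b, 6.55% of all genes had every floxed library above every control. For the pairs of sets of these 5 genes the difference was not tested, and none of the 5 passed the edgeR test in either set. Atp5s had a log2 fold change of -0.56 in the VavCre Arid1b set and 0.60 in the MxCre set titled A2, a difference of -1.16.

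Sdhb, the iron-sulfur subunit of complex II, had 111, 97.9 and 98.7 CPM in floxed libraries of the VavCre Arid1b set, against 76.0, 78.2 and 90.2 CPM in controls. In the MxCre set titled A2 it had 74.9, 82.6 and 74.9 CPM in floxed libraries, against 96.4, 88.2 and 89.3 CPM in controls. The log2 fold changes of 0.33 and -0.24 differ by 0.57.

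Atp5j, coupling factor 6 of the synthase, had 106, 107 and 116 CPM in floxed libraries of the VavCre Arid2 set, against 170, 147 and 119 CPM in controls. In the MxCre set titled A2 it had 157, 157 and 118 CPM in floxed libraries, against 111, 116 and 115 CPM in controls. The log2 fold changes of -0.40 and 0.34 differ by -0.74, and Atp5j shares exon bases with Gabpa.

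Ndufb2, an accessory subunit of complex I, had 24.04, 29.1 and 24.5 CPM in floxed libraries of the VavCre Arid2 set, against 37.2, 33.9 and 29.8 CPM in controls. In the MxCre set titled A1b it had 34.0, 70.5 and 35.3 CPM in floxed libraries, against 27.6, 27.9 and 28.0 CPM in controls, and the log2 fold changes of -0.38 and 0.74 differ by -1.12. Uqcrb, in the same sets, had log2 fold changes of -0.47 and 0.60, a difference of -1.06. The values of both in the MxCre set titled A1b include floxed library 2.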

How the results depend on the processing

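Atp5sl, the 1 called member, kept its direction under every alternative run. The median log2 fold change of the members did change sign where it was near 0: in the VavCre Arid1b set (-0.09) to 0.01 without floxed library 3, and in the MxCre set titled A2 (0.01) to -0.08 without floxed library 1, -0.07 without floxed library 2, -0.03 and -0.02 without control libraries 1 and 3, -0.02 with the replicate block and -0.0019 with no low-count filter. In the VavCre Arid1b set 1 member was called in the main analysis. The count was 0 with upper-quartile scaling, no filter, a term for Y-positive libraries, or without the 3 libraries that stand apart, and 0 or 1 when single libraries were left out. It was 2 with the length offset, with the offset from all exons (added after seeing the data) and with the groups of the set alone, 3 with the length offset without floxed library 2 of the MxCre set titled A1b (also added), and 15 with limma-voom. Atp5sl lost its call in 12 of 20 alternatives, with log2 fold changes of 0.75 to 0.90 and adjusted p-values of 0.000556 to 0.271. In the VavCre Arid2 set the count was 0, against 1 with DESeq2 or the set alone and 21 with limma-voom. It was 4 without the same 3 libraries, none of them in this set, and 0 with any single library left out. The 4 were not set beside the share of all genes called in that fit. In the MxCre set titled A2 it was 5 with limma-voom and 0 with any single library left out. In the MxCre set titled A1b it was 2 with DESeq2 and 0 to 38 with single libraries left out. The difference of the VavCre sets gave 1 with DESeq2 and 1 with limma-voom, that of the MxCre sets 1 with DESeq2 and 0 to 10 with single libraries left out, and the controls 17 with limma-voom. The causes were not tested. Over all genes, 926 were called in the VavCre Arid1b set, against 1812 with DESeq2 and 4150 with limma-voom, and 185 in the VavCre Arid2 set, against 1103 and 4418.

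Same-numbered libraries correlated at -0.21 to 0.23 in their deviations from group means, and different-numbered ones at -0.26 to 0.29. Deviations within a group of 3 sum to 0, so this check cannot tell whether the numbers pair libraries. With a replicate block 0 members were called in the VavCre Arid1b set, with or without the length offset, and 1 of all genes was called. In that set floxed library 4 and control library 2 have no same-numbered partner. The blocked contrast therefore rested on libraries 1 and 3 of each genotype.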

Other observations

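The 82 tested cytosolic ribosomal protein genes, which are also short, had 0 calls by edgeR in each set. Their median log2 fold change was 0.18 in the VavCre Arid1b set, 0.10 for VavCre Arid2, -0.16 in the MxCre set titled A2 and 0.65 in the MxCre set titled A1b, where 76 had an unadjusted p under 0.05 (17.4% of all genes). The 77 mitochondrial ribosomal protein genes had 0 calls and medians of -0.12, -0.18, 0.08 and 0.40 in the sets in that order. Of them 2, 4, 1 and 27 had an unadjusted p under 0.05 (24%, 19.5%, 10.6% and 17.4% of all genes). The values of both lists in the MxCre set titled A1b include floxed library 2, where their median deviations were 1.04 and 0.60, and 0.26 and 0.08 after the length correction. Mrpl24, of the large mitochondrial subunit, was nearest a call, with 106 ± 9.13 CPM in floxed and 161 ± 23.8 CPM in control libraries of the VavCre Arid1b set (SD, n = 3 each; adjusted p = 0.0503 by the edgeR model).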
